A study of Mus musculus with 2 samples.

Results

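The miR-29 family of the mouse comprises 4 microRNA genes, Mir29a, Mir29b-1, Mir29b-2 and Mir29c, and was measured here by microRNA sequencing of the embryonic hindbrain. The genes were taken by symbol, and all 4 were found among the 1973 gene rows of each count table, as 2 genes on chromosome 6 (Mir29a and Mir29b-1) and 2 on chromosome 1 (Mir29b-2 and Mir29c). The hindbrain, which gives rise to the cerebellum, pons and medulla, was collected from embryos of strain B6NCrl, both sexes pooled, at 15.5 days. Tissue of 78 embryos went into replicate 1 and tissue of 62 into replicate 2, and the labels number them as biological replicates of total RNA, with small RNA selected by size. The series holds 1 group, without a treatment, a second age or a second tissue, so only the 2 pools can be compared. Both pools carry the same donor label, and p-values measure only the counting error between 2 libraries.

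A microRNA is cut from a hairpin in a longer primary transcript, and 1 or both arms of the hairpin, called 5p and 3p, become mature strands. The mature strand finds its target messenger RNAs mainly through its seed, the bases next to its 5′ end. Genes of a cluster lie so close that they are cut from a shared primary transcript. In mouse brain, miR-29 is known for rising strongly as neurons mature after birth, for repressing the de novo DNA methyltransferases Dnmt3a and Dnmt3b, and for restraining pro-apoptotic genes in mature neurons. In fibroblasts it is known for repressing collagens and other matrix genes.

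The 3p strands, which RefSeq lists for build GRCm38, are shown first because their likeness sets what a read count can tell. The capitals mark the seed, bases 2 to 8 counted from the 5′ end.
miR-29a-3p (Mir29a): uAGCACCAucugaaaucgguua
miR-29b-3p (Mir29b-1 and Mir29b-2): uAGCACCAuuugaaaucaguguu
miR-29c-3p (Mir29c): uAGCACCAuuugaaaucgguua

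All 4 genes carried the seed AGCACCA, and no other gene among the 1738 mature entries of the RefSeq table did. In 4 genes there were 3 different 3p strands. The strands of Mir29a and Mir29c, 22 bases each, differed at a single position, C10U, with the base of miR-29a first. From miR-29c-3p, miR-29b-3p differed by A18G, G21U and U22A over the 22 bases compared, with the base of miR-29b first, and it has 23 bases. Its first 17 bases were identical to those of miR-29c-3p. The 3′ end of miR-29b-3p holds AGUGUU, a hexamer known in human cells to direct miR-29b to the nucleus. Neither miR-29a-3p nor miR-29c-3p holds it. It occurred in 12 (0.717%) of the 1674 distinct mature sequences that RefSeq lists, and 2 ended with it.

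Mir29b-1 and Mir29b-2 give one and the same 3p strand and are told apart by their 5p strands, shown with the seed in capitals.
miR-29a-5p: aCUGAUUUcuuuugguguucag
miR-29b-1-5p: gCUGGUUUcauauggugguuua
miR-29b-2-5p: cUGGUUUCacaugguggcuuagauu
miR-29c-5p: uGACCGAUuucuccugguguuc
The 4 strands had 4 different 5p seeds, but the seeds of miR-29b-1-5p and miR-29b-2-5p differ only by an offset within the same run of bases. The strands miR-29b-1-5p and miR-29b-2-5p shared at most 9 bases in a row. A read of either 5p strand can thus be placed at 1 locus, whereas a read of miR-29b-3p fits both.

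The whole hairpins follow, 5′ to 3′ on the strand of the gene, with both mature arms in capitals.
Mir29b-1, chr6:31063023-31063093, minus strand: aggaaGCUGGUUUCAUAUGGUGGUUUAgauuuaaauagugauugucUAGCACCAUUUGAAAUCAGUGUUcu
Mir29a, chr6:31062660-31062747, minus strand: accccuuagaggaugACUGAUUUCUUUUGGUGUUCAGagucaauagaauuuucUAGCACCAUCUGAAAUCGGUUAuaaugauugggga
Mir29b-2, chr1:195037040-195037120, plus strand: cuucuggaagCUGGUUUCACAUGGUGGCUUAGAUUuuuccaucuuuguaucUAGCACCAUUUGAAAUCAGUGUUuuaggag
Mir29c, chr1:195037547-195037634, plus strand: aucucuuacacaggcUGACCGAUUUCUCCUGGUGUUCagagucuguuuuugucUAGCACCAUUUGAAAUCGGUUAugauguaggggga

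The longest stretch shared by 2 hairpins was 25 bases, between Mir29b-1 and Mir29b-2. Mir29b-1 and Mir29c shared 22, Mir29b-2 and Mir29c 19, Mir29a and Mir29c 14, and Mir29a shared 11 with either miR-29b gene. Among 141767 GENCODE M21 transcripts, the strands of Mir29a matched that gene alone. The strands of Mir29c matched Mir29c and 2 longer genes that overlap it, and miR-29b-3p was the one strand of the family found at a second locus.

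Both clusters are arranged alike, with the miR-29b gene upstream. In transcription order Mir29b-1 precedes Mir29a by 275 bases on chromosome 6, and Mir29b-2 precedes Mir29c by 426 bases on chromosome 1. Mir29b-2 (ENSMUSG00000065412) and Mir29c (ENSMUSG00000065548) lie in exon 3 of a retained-intron transcript of the non-coding host gene A330023F24Rik, on its strand. On the opposite strand the same bases lie in the untranslated part of exon 11 of a Cd46 transcript. Mir29a (ENSMUSG00000065610) lies in no other annotated gene, and Mir29b-1 (ENSMUSG00000065604) overlaps the long non-coding RNA Gm27019 by 2 bases. Hairpin positions were the same in RefSeq and GENCODE M21. The deposited tables carry an earlier version of the identifier for Mir29b-1 and Mir29b-2, so the extent counted for these genes may have differed.

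**Figure D1:**
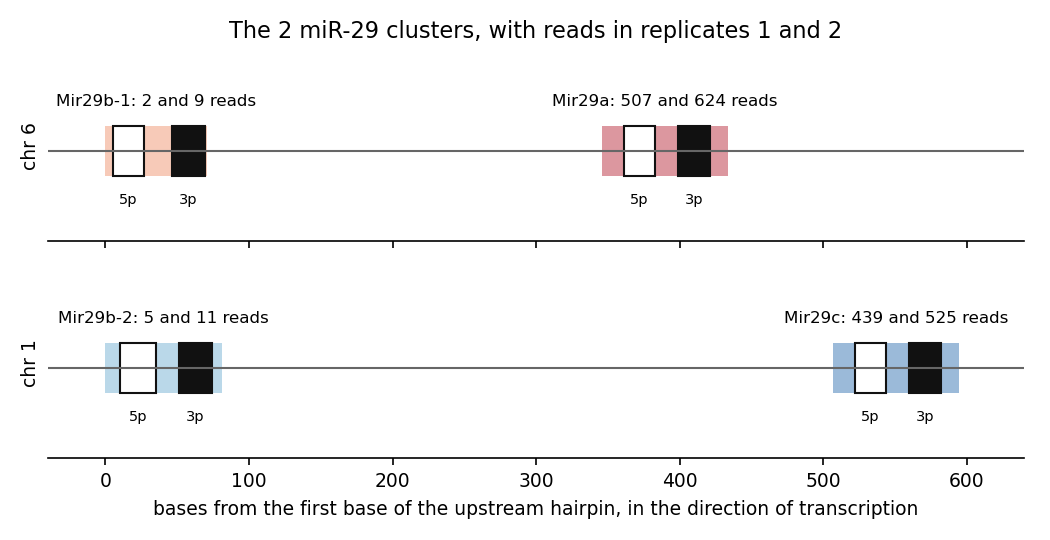
Map of the miR-29 clusters on chromosomes 6 (top) and 1 (bottom), to scale in bases from the first base of the upstream hairpin. Coloured boxes are hairpins, open boxes 5p arms and black boxes 3p arms, and the text gives own-strand reads in replicates 1 and 2. In each cluster the upstream miR-29b gene had 2 to 11 reads and the downstream gene 439 to 624.

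The family was present in the hindbrain at a moderate level that was nearly the same in both pools. It held 953 of the 3937840 gene reads of replicate 1 and 1169 of the 4839647 of replicate 2. As CPM, the count scaled to 1000000 reads on the genes' own strand, the family stood at 242.0 and 241.5, or 0.0242% of the gene reads in each pool. A gene row counts reads over the whole hairpin, which adds the 5p arm to the 3p arm. In tissue RNA, fewer cells that make a microRNA and less of it per cell cannot be told apart.

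Mir29a, the downstream gene of chromosome 6, had the most reads of the 4 gene rows, which may lack miR-29b-3p reads placed at several loci. Its reads numbered 507 in replicate 1 and 624 in replicate 2, giving levels of 128.8 and 128.9 CPM (mean 128.8 ± 0.130, SD, n = 2). Counting error alone gave exact Poisson 95% intervals of 117.8 to 140.5 CPM and 119.0 to 139.5 CPM, so the pools differed by far less than counting error allows. Mir29c, the downstream gene of chromosome 1, had 439 and 525 reads. Its level was 111.5 CPM in replicate 1 and 108.5 CPM in replicate 2 (mean 110.0 ± 2.12, SD, n = 2). Both pools placed Mir29a above Mir29c, with no overlap of the values, although in replicate 1 the Poisson interval of Mir29c, from 101.3 to 122.4 CPM, reached into that of Mir29a.

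The 2 genes that make miR-29b were far lower in counts. Replicate 1 held 2 reads of Mir29b-1 and replicate 2 held 9, giving 0.508 and 1.86 CPM (mean 1.18 ± 0.956, SD, n = 2). Mir29b-2 had 5 and 11 reads, which is 1.27 and 2.27 CPM (mean 1.77 ± 0.709, SD, n = 2). The ranges of both genes overlapped. The mean of Mir29b-1 depends on the pool by over 1.5 times, being 1.86 CPM without replicate 1 and 0.508 CPM without replicate 2. A count of 0 allows up to 3 reads, equal to 0.762 CPM for replicate 1 and 0.620 for replicate 2, so Mir29b-1 in replicate 1 lay below that limit.

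The tables have a row for reads placed at several loci, apart from the gene rows, and it held 35.4% of all 8327917 reads in replicate 1 and 34.2% of 10507754 in replicate 2. The counting tool is not given in the sources used here, and that such reads enter no gene row is read from the row's name alone. If so, the reads of the miR-29b genes and of the family are a minimum, and shares of the family's reads leave the reads set apart out. How many of the reads set apart are miR-29b-3p is not given in these tables. The part of shared sequence in the low counts was not tested.

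**Figure D2:**
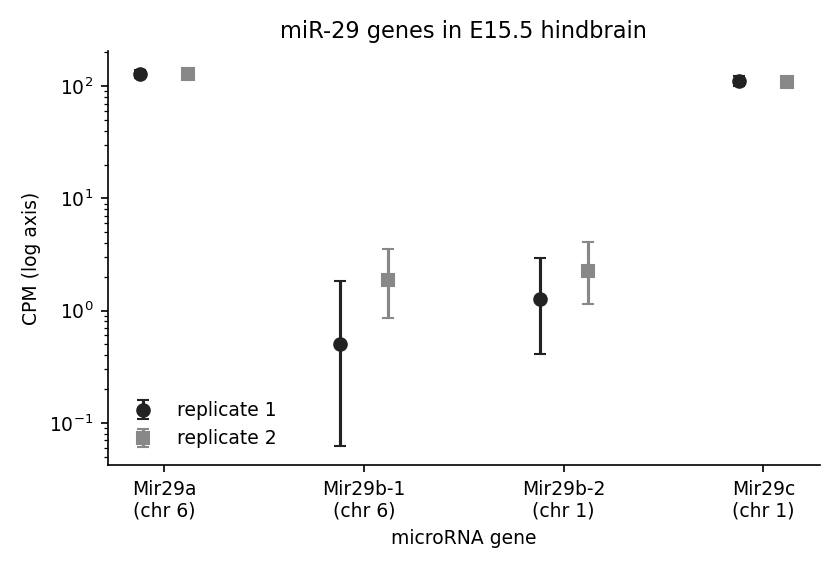
Levels of the 4 miR-29 genes in replicate 1 (circles) and replicate 2 (squares), in CPM on a log axis, with exact Poisson 95% intervals that cover counting error only. Mir29a and Mir29c lie between 108.5 and 128.9 CPM, and Mir29b-1 and Mir29b-2 between 0.508 and 2.27 CPM.

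Within the chromosome 6 cluster, Mir29a exceeded Mir29b-1 by 253.5-fold in replicate 1 and 69.3-fold in replicate 2 in reads. The exact 95% intervals, from 69.8 to 2099 and from 36.3 to 152, overlap, since they rest on 2 and 9 reads of Mir29b-1. Within the chromosome 1 cluster, Mir29c exceeded Mir29b-2 by 87.8-fold (37.3 to 272) and 47.7-fold (26.5 to 96.2). Dividing counts by hairpin length, which is 88 bases for Mir29a and Mir29c, 71 for Mir29b-1 and 81 for Mir29b-2, gave mean ratios of 130 and 62.4, against 161 and 67.8 undivided. Counted per gene, the 2 members of each cluster thus stood far apart in reads.

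Between clusters the difference in counted reads was small. Mir29a exceeded Mir29c 1.15-fold in replicate 1 (exact 95% interval 1.01 to 1.32) and 1.19-fold in replicate 2 (1.06 to 1.34). Both hairpins have the same length, so the ratio is the same per length. The ratios of the 2 pools differed by less than the width of either interval, and the mean was 1.17 ± 0.0238 (SD, n = 2). Summed over both members, the cluster on chromosome 6 exceeded that on chromosome 1 by 1.15-fold (1.01 to 1.30) and 1.18-fold (1.05 to 1.33). All these intervals lay above 1, and they cover counting error only. The cluster sums would lack any miR-29b-3p reads set apart at several loci, so the order of the clusters with those reads included is not known.

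As shares of the family's reads, Mir29a held 53.2% in replicate 1 (exact Clopper-Pearson 95% interval 50.0 to 56.4) and 53.4% in replicate 2 (50.5 to 56.3). Mir29c held 46.1% (42.9 to 49.3) and 44.9% (42.0 to 47.8). Together these genes held 99.3% and 98.3% of the family's reads. This total would lack any miR-29b-3p reads that were set apart at several loci. Mir29b-1 held 0.210% (0.0254 to 0.756) and 0.770% (0.353 to 1.46), and Mir29b-2 held 0.525% (0.171 to 1.22) and 0.941% (0.471 to 1.68). No split of miR-29b between its genes can be read from this, since Mir29b-1 over Mir29b-2 was 0.400 (0.0381 to 2.44) in replicate 1 and 0.818 (0.30 to 2.17) in replicate 2.

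The reads of every member lay on the strand of the hairpin. None of the 4 genes had a read on the opposite strand in either library. For Mir29a a count of 0 allows up to 0.592% of its reads in replicate 1 and 0.481% in replicate 2, and for Mir29c up to 0.683% and 0.571%. The few reads of Mir29b-1 and Mir29b-2 allow no useful limit.

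Set among the microRNA genes with at least 10 reads in a library, Mir29a and Mir29c lay near the middle and Mir29b-2 near the bottom, while Mir29b-1 had too few reads to be among them. Mir29a ranked 196th in replicate 1 and 197th in replicate 2 of 1973 genes, and Mir29c ranked 206th and 204th. By mean CPM 54.7% of the 426 genes with at least 10 reads in a library stood at or below Mir29a and 51.6% at or below Mir29c, against 2.11% at or below Mir29b-2. The median of these 426 genes was 95.3 CPM. Mir99a, the most abundant gene, at 166329 ± 7791 CPM (SD, n = 2), exceeded Mir29a 1335-fold and 1247-fold in reads. Mir29b-2 ranked 448th and 391st, and Mir29b-1 533rd and 415th.

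**Figure D3:**
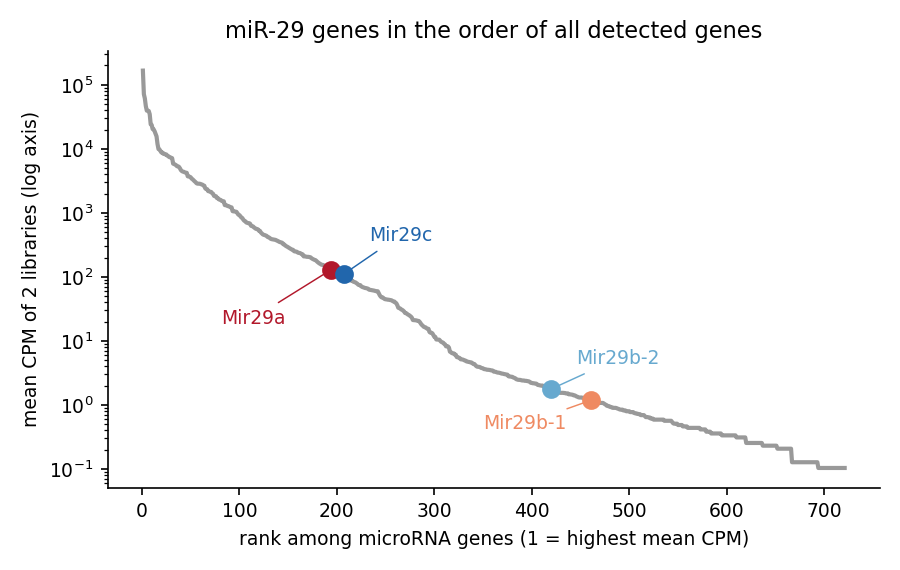
Mean CPM of the 2 libraries on a log axis against rank, for the 721 microRNA genes with a read in either library (grey line). Mir29a and Mir29c (ranks 194 and 207 by mean CPM) lie on the upper part of the curve and Mir29b-2 and Mir29b-1 (ranks 420 and 461) on its tail.

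The genes closest in level were found by the distance of log2(CPM + 1) over the 2 libraries. Nearest to Mir29a were Mir3475 (125.4 and 129.1 CPM), Mir32 (133.6 and 131.8 CPM) and Mir488 (126.7 and 138.2 CPM), at distances of 0.037, 0.062 and 0.102. For Mir29c they were Mir301b (112.5 and 109.3 CPM), Mir410 (116.3 and 107.2 CPM) and Mir592 (119.9 and 114.7 CPM), at 0.017, 0.063 and 0.131. Mir29b-1 was closest to Mir299b and Mir7075, each with 2 and 10 reads, and Mir6715 with 3 and 9. Mir29b-2 was closest to Mir6998 with 5 and 10 reads, the neuronal Mir124a-2 with 6 and 11, and Mir3085 with 6 and 12. With 2 libraries of 1 tissue this is likeness of level and nothing more.

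The levels of the miR-29b genes were then set beside other genes with copies. Of the genes in the tables, 916 were matched to RefSeq mature strands. In 53 of them, Mir29b-1 and Mir29b-2 included, some but not all arms were identical to an arm of another gene. These 53 had a median of 49.1 CPM, with quartiles of 1.77 and 351 CPM. Both libraries had at least 10 reads of 36 of them (67.9%), while 21 were above Mir29a. The lower quartile is the value of Mir29b-2 itself, with 13 of the 53 below it. In 34 genes every arm was shared, with a median of 0 CPM and 25 genes without a read, but 7 of them (20.6%) had at least 10 reads in both libraries, 4 stood above Mir29a and the highest reached 2118 CPM. In the other 829 genes, Mir29a and Mir29c among them, every listed arm was the gene's own, with a median of 0.635 CPM. Of these, 297 (35.8%) had at least 10 reads in both libraries, 274 had no read and 152 were above Mir29a. Genes with some shared arms ranged from far above the miR-29b genes to below them. The counts do not show which arm a gene's reads come from. Whether a shared arm lowers a gene's count was not tested.

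**Figure D4:**
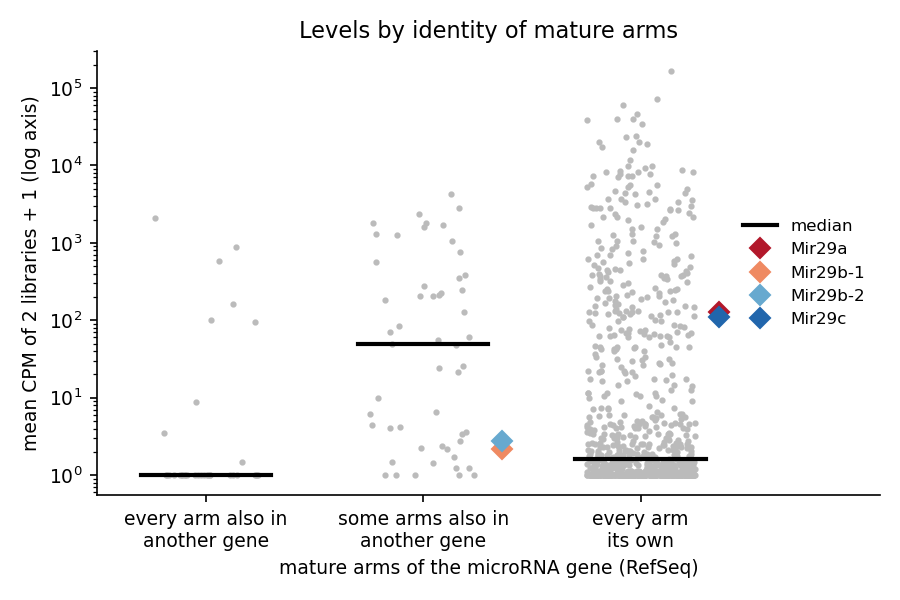
Mean CPM + 1 of the 2 libraries on a log axis, by the mature arms that RefSeq lists. On the left are 34 genes whose every listed arm is also in another gene. In the middle are 53 with some such arms, and on the right 829 with every listed arm their own. Grey points are genes, bars medians and diamonds the miR-29 genes. Mir29b-1 and Mir29b-2 lie below the middle median of 49.1 CPM, and Mir29a and Mir29c above the right-hand median of 0.635 CPM.

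The pools were compared to see whether any member differed beyond counting error, by the ratio of replicate 1 over replicate 2 after TMM scaling and the exact binomial test, adjusted over 426 genes. Of the 3 members tested, 0 were called at an adjusted p of 0.05, and 0 were called by edgeR's exact test at an assumed coefficient of variation of 0.1 or of 0.2. None had an unadjusted p under 0.05 by the binomial test. Among all 426 genes 35.9% were called, 20.7% as higher and 15.3% as lower in replicate 1, but edgeR's exact test called 6 of them at an assumed coefficient of variation of 0.1 and 0 at 0.2. At an unadjusted p under 0.05 these numbers were 32 and 12. At least 1.5-fold apart were 16.2% of the genes, and of the 3 members Mir29b-2. With 1 library on each side, this compares the 2 libraries and nothing wider.

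For Mir29a the log2 ratio was 0.01 (exact 95% interval -0.16 to 0.19, adjusted p = 0.938 by the exact binomial test). For Mir29c it was 0.06 (-0.13 to 0.24, adjusted p = 0.718 by the same exact test). These tests do not show that the pools were equal. The intervals reach at most 0.24 on the log2 scale. Mir29b-2 was lower in replicate 1 by value, at -0.82 (-2.70 to 0.82, adjusted p = 0.499 by the exact test), with 5 reads against 11. Mir29b-1, whose 2 and 9 reads were too few for the test, was at -1.86 (-5.11 to 0.42). With their reads summed to 7 and 20, the miR-29b genes were at -1.20 (-2.69 to 0.10), an interval that holds 0. The 22 genes with a mean of 100 to 150 CPM, the range of Mir29a and Mir29c, had an SD of 0.25 in their log2 ratios, and both members lay well within it.

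**Figure D5:**
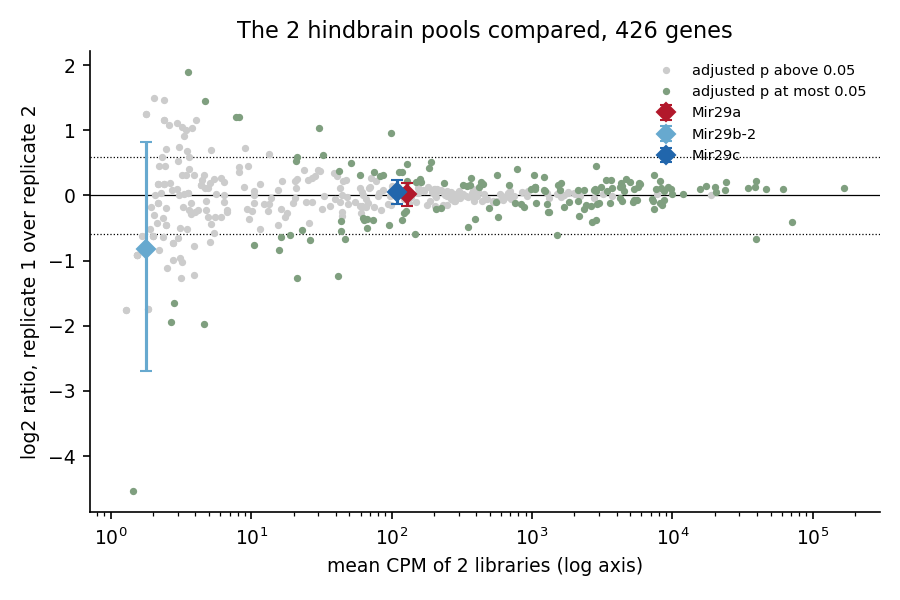
Log2 ratio of replicate 1 over replicate 2 against mean CPM (log axis) for the 426 genes tested, grey above and green at or below an adjusted p of 0.05 (these points have 0.5 read added to each count), with diamonds and exact 95% intervals for the 3 members tested. Dotted lines mark 1.5-fold. Mir29a and Mir29c lie at 0.01 and 0.06, and the interval of Mir29b-2, from -2.70 to 0.82, spans 0.

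Other microRNAs known to rise as neurons or oligodendrocytes mature were measured beside the family. Of 28 listed symbols 25 were found and tested, with a median of 561 CPM against 95.3 CPM for all genes tested. Above Mir29a stood 16 of them, led by the let-7 genes Mirlet7g (61193 ± 2438 CPM) and Mirlet7i (46442 ± 2016 CPM), and below Mir29c stood 8. The lowest was Mir124a-2, from a family that is abundant in neurons and has several copies, at 1.90 ± 0.530 CPM (SD, n = 2). Mir124a-2 thus stood close to Mir29b-2. Its row would lack any reads set apart because they fit other copies equally well, so it does not give the level of miR-124. Between the pools 5 of the 25 were called higher and 9 lower in replicate 1 by the binomial test, where 20.7% and 15.3% of all genes tested were, with a median log2 ratio of -0.10 against 0.01 over all genes tested.

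A second list held microRNAs that, like miR-29, are reported in other cells to target enzymes that add or remove DNA methylation. All 10 were found, with a median of 324 CPM, and 7 of them stood above Mir29a. The highest were Mir26b (15631 ± 609 CPM) and Mir143 (5857 ± 448 CPM), which is also abundant in smooth muscle, and the lowest was Mir26a-1 at 5.11 ± 1.84 CPM (SD, n = 2). In replicate 1, 4 of the 10 were called higher and 1 lower by the same test, beside the same 20.7% and 15.3%, with a median log2 ratio of 0.03. Counts of calls in both lists allow for counting error only.

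Marker microRNAs were set beside the tissue label, since miR-29 is also made outside neurons. The Hox cluster genes, 6 of 6 found, summed to 92090 CPM in replicate 1 and 132296 CPM in replicate 2. Most of this was Mir10a and Mir10b (means 71261 and 39376 CPM), while Mir196a-1 had 0.230 CPM. Neural genes, 8 of 9 found, summed to 11755 and 13413 CPM. Most of this was Mir137 and Mir128-1 (means 8360 and 2333 CPM). Of the 8, 4 stood below Mir29c, namely Mir124a-1, Mir9-2, Mir124a-3 and, lowest, Mir124a-2 at 1.90 CPM. The Mir124a genes are copies, and every listed arm of Mir9-2 is also in another gene. If reads that fit more than 1 locus enter no gene row, these counts are a minimum. They do not show that miR-124 or miR-9 was scarcer than miR-29c. The same limit holds for other markers with shared arms, such as Mir196a-1 and Mir199a-1. Of the genes tested, 4 of 5 Hox cluster genes and 4 of 8 neural genes were called lower in replicate 1. Mesenchymal and smooth muscle genes, a class whose cells are known to make miR-29, summed to 6623 and 5913 CPM over 6 of 7 genes found. Most of this was Mir143 (mean 5857 CPM), and 4 of the 6 stood below Mir29c. In this class 3 of 5 tested were called higher in replicate 1. Endothelial Mir126a had 25702 and 22600 CPM and was called higher in replicate 1. The 3 oligodendrocyte genes summed to 2610 and 2720 CPM, with 1 called higher and 1 called lower. The 6 choroid plexus and ciliated cell genes summed to 5610 and 7169 CPM, and 4 of 5 tested were called lower in replicate 1. The 3 of 5 leukocyte genes found summed to 478 and 377 CPM, with 2 called higher in replicate 1. The 2 of 3 erythroid genes found summed to 173 and 125 CPM, with 2 called higher. Liver Mir122 had 35.6 and 57.0 CPM and was called lower in replicate 1. Striated muscle genes, 5 of 6 found, summed to 27.2 and 23.3 CPM, all of it Mir206, while Mir133b, Mir1a-1, Mir133a-2 and Mir133a-1 had 0 reads. Mir206 was not called. These calls are by the binomial test, which called 35.9% of all genes tested, and no class was tested as a whole. The family's total had a log2 ratio of 0.02 (-0.11 to 0.14). The part of each cell type in the level of miR-29 was not tested.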

How the data were processed

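For each library the authors deposited a table of raw read counts, made on mm10 per the labels and with GENCODE M4 per the deposited notes. The software that trimmed, mapped and counted is not given in the sources used here. Without a header, each table holds 3 count columns: both strands, 1 strand and the other. The third column of the file, the single strand with the larger total, was used. The 4 summary rows stayed out of totals and tests: of all reads in replicates 1 and 2, unmapped reads were 13.7% and 15.8%, reads at several loci 35.4% and 34.2%, reads outside genes 2.56% and 2.96%, and ambiguous reads numbered 0. Symbols came from GENCODE M21 by identifier without version (1894 of 1973 matched), and sequences from RefSeq (GRCm38.p6).

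CPM used own-strand gene reads. TMM scaling was run in edgeR 4.0.16 (R 4.3.3) over genes with at least 10 reads in a library, with DESeq2 1.42.0 size factors as an alternative. The exact two-sided conditional binomial test, with Benjamini-Hochberg adjustment over all genes tested, was checked on simulated data. These held counting error alone, so the check does not cover variation between pools. Intervals cover counting error only, since reads carry no molecular identifiers here. Tests ran with scipy 1.17.1 and numpy 2.4.6 under Python 3.11.15. Genes named beside the members were taken by rule: the 3 nearest in level to each, the 2 highest and the lowest of each list, and the most abundant gene; markers are named to complete a list. The members, lists and tests were chosen with earlier results of these data known.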

Additional observations from a re-analysis of the deposited data

How the results depend on the processing

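Over 24 results and 112 alternatives, 95 kept their direction and side of the threshold or stayed within 1 SD. Many of the 95 could not have come out otherwise. With 2 libraries, leaving out a replicate always stays within 1 SD of the mean. Shares and ratios with both strands counted were fixed too, since no member had a read on the opposite strand. With all reads of the library as the base, levels were 60.1 CPM for Mir29a, 51.3 for Mir29c, 0.824 for Mir29b-2 and 113 for the family. With both strands counted they were 126.1 for Mir29a, 107.6 for Mir29c and 236.6 for the family, and mean ranks were 205.5 for Mir29a and 214.0 for Mir29c. Without the miR-29b genes Mir29a held 54.0% of the family. The log2 ratio of Mir29a, near 0, changed sign to -0.0021 with total counts, -0.0164 with genes of at least 1 read and -0.0133 with at least 100 reads in a library. Its adjusted p was at least 0.915 throughout, that of Mir29c at least 0.718 and that of Mir29b-2 at least 0.494. Mir29b-2 could not be tested at a minimum of 100 reads, and Mir29b-1 was tested with genes of at least 1 read alone, at an adjusted p of 0.365. Genes called between the pools numbered 6 at an assumed coefficient of variation of 0.1 (32 at an unadjusted p under 0.05) and 0 at 0.2 (12 at an unadjusted p under 0.05), against 153 by the binomial test. Genes at least 1.5-fold apart numbered 280 with genes of at least 1 read and 11 at 100 reads, against 69. Leaving out a replicate leaves no comparison of pools. No paired analysis was possible because the series holds 1 group. Depth limits Mir29b-1 and Mir29b-2, whose reads number 2 to 11.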
